A study of Mus musculus with 24 samples.

Results

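Whole lungs of wild type male C57BL/6 mice were compared 4 days after lipopolysaccharide (LPS) with wild type control lungs, on 3 arrays in each group, or 6 of the 24 arrays of the study. The mice were 6 to 8 weeks old, and the arrays were chosen by sample title and tied to the scanner signals by value, since the line of titles over the scanner signals disagreed with that match for 5 of these 6 arrays. The rest of the study holds wild type lungs at day 1 and day 10 after LPS and the same 4 conditions in Rag-1 null mice, which have no mature lymphocytes of the T and B lineages, as their antigen receptor genes cannot be rearranged. How and at what dose LPS was given, what the controls received and how many mice a sample holds are unstated in the sources used here. The p-values therefore rest on the spread between these samples, and that spread may be technical.

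LPS is the endotoxin of the outer membrane of Gram-negative bacteria. It is sensed by CD14, MD-2 and TLR4 on macrophages and on epithelial and endothelial cells, which then make cytokines, chemokines and acute phase proteins and draw neutrophils and monocytes into the airspace. In the days that follow, recruited and resident macrophages clear dead cells and debris, lung cells divide to replace those lost, and the alveolar wall is rebuilt.

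The beadchip held 24046 probes, of which 9663 to 10181 lay above background on the control arrays and 11049 to 12125 at day 4. Replicate arrays correlated at 0.966 to 0.983 in control lung and at 0.966 to 0.984 at day 4. All 13544 probes detected on at least 3 of the 24 arrays were tested with limma; 11658 of them named 9605 genes, and a gene takes the value of its brightest probe. Levels are normalized log2 signals of 1 probe, and can be compared between arrays but not between genes. Differences are log2 (day 4 minus control) ± the standard error, from 3 arrays a group, and rose or fell is written where the adjusted p was under 0.05. Where a probe was above background on 0 arrays of a group, the change is given as at least N-fold, against the higher, on each array of that group, of the lowest detected signal and the probe's own. In whole lung, fewer cells of a type and less RNA per cell cannot be told apart.

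At day 4 acute phase, interferon, chemokine, macrophage, lysosome and cell division genes were more often above control than below, while genes of capillary endothelium, detoxification and lung fibroblasts were more often below it than above. In all, 3152 probes passed (23.3% of those tested), 1450 higher (10.7%) and 1702 lower (12.6%). By gene, 1052 were higher (11%) and 1340 lower (14%), and the median over all genes was -0.04. A change of more than 2-fold was seen in 401 genes that rose and 212 that fell, and of more than 8-fold in 17 and 1. The 3 day 4 values all lay above the 3 control values for 19.4% of probes and all below for 20.2%, the background for statements on overlap. Without the day 4 array of replicate 1, 1869 probes passed. The split depended on the scaling: 46.0% of the calls were higher after quantile normalization, 88.2% of 4931 calls where arrays were scaled to a common median, 36.8% of 5234 in the authors' value table and 22.5% of 5499 where arrays were centred on the probes detected on all of them. The median difference over all probes was -0.0158 after quantile normalization, 0.265 with median scaling and -0.21 with the last centring, so changes are best read relative to those medians. The counts by gene list, set against all genes, are drawn in the bar chart of lists.

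**Figure D1:**
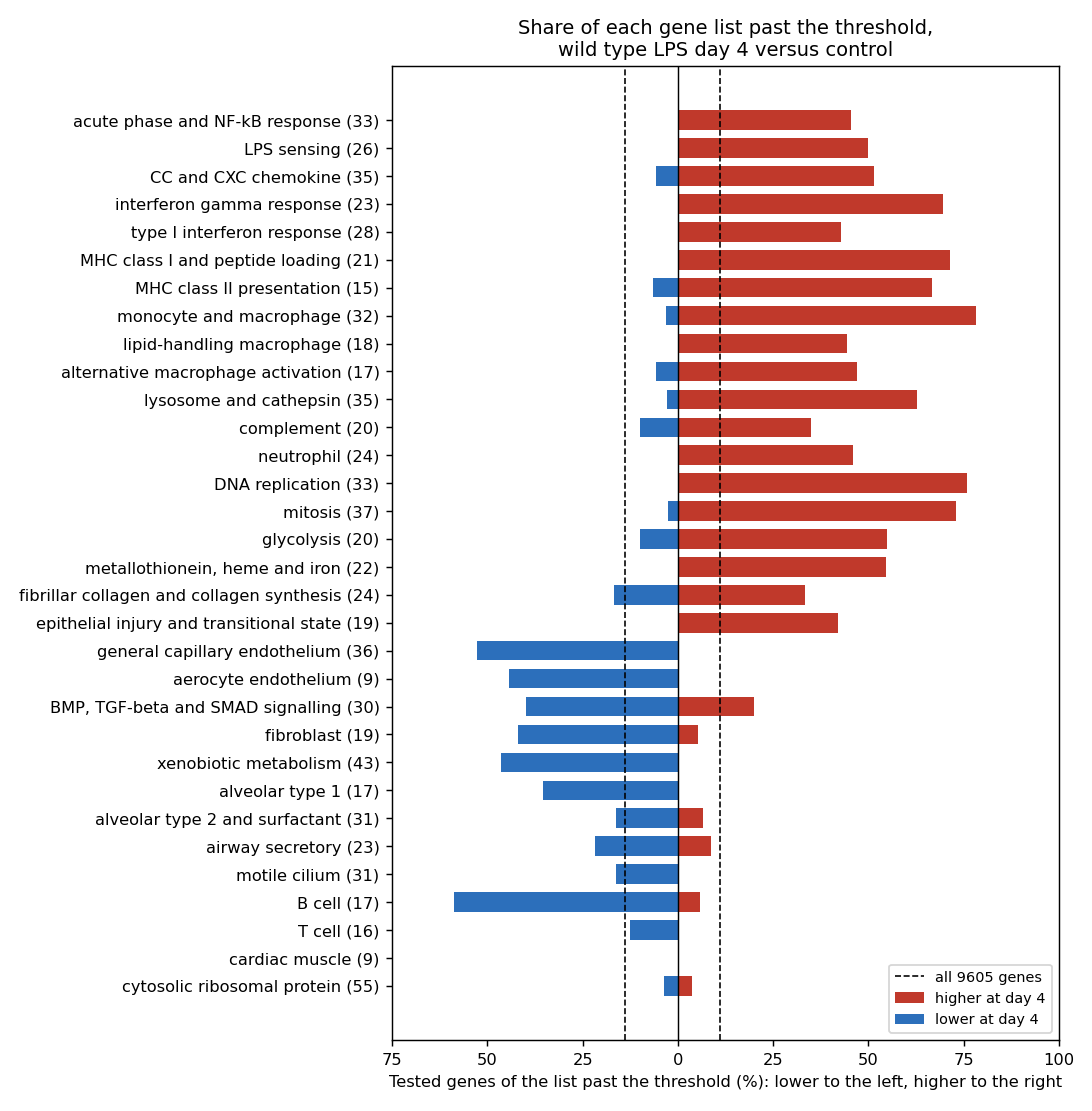
Bars give the percentage of the tested genes of each list that passed an adjusted p of 0.05, higher at day 4 to the right and lower to the left, with the number tested in parentheses; dashed lines mark the share of all 9605 genes, 11% higher and 14% lower. The DNA replication (75.8%), mitosis (73.0%) and macrophage (78.1%) lists reach farthest to the right, and the B cell (58.8%) and general capillary (52.8%) lists farthest to the left.

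The acute phase gene Saa3 changed most. This serum amyloid A, made by macrophages and epithelium, had levels of 5.19, 6.34 and 5.56 in control and 13.63, 13.19 and 13.19 at day 4. It rose by 7.64 ± 0.39, or 199-fold (adjusted p = 1.69e-11), and the groups were far apart. Lcn2, which binds bacterial siderophores, was at 8.16, 10.01 and 9.16 in control and 12.91, 12.23 and 12.33 at day 4 (3.38 ± 0.29, adjusted p = 4.63e-08). The acid glycoprotein gene Orm1 rose by 3.12 ± 0.38 and the protease inhibitor genes Serpina3n and Slpi by 2.06 ± 0.28 and 1.66 ± 0.26. Of the 33 tested genes of the acute phase and NF-kB list, 15 rose, 18 did not pass and 0 fell, with a median of 0.68 (25 rose with median scaling). Tnfaip3, which shuts off NF-kB signalling, rose (1.46 ± 0.26). Several NF-kB targets did not pass at this time. The inhibitor gene Nfkbia was at 0.57 ± 0.28. It passed without the day 4 array of replicate 2 (0.86, adjusted p = 0.0393), with median scaling and in the authors' value table. The adhesion molecule gene Icam1 was at 0.10 ± 0.19 and passed with median scaling (0.66, adjusted p = 0.0313). Vcam1, another adhesion molecule gene, was at 0.45 ± 0.18. It passed without the day 4 array of replicate 3 (0.59, adjusted p = 0.0379), with median scaling, centring on detected probes and the value table. Saa1 and Saa2, other serum amyloid genes, were not above background in control and did not pass. Each of these 5 was lower at day 4 than at day 1 in the direct test (Icam1 -1.33 ± 0.19 and Nfkbia -1.83 ± 0.28).

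Part of the genes that sense LPS rose. Cd14, the LPS co-receptor, was at 6.36, 6.55 and 6.78 in control and 9.98, 8.60 and 8.75 at day 4, a rise of 2.55 ± 0.35 (adjusted p = 2.13e-05), and Tlr2, a receptor for bacterial lipoproteins, rose by 2.40 ± 0.23. Ly96, which encodes MD-2, rose by 0.81 ± 0.16 and the endosomal RNA receptor genes Tlr7 and Tlr13 by 1.48 ± 0.19 and 1.72 ± 0.18. Irak3, a brake on Toll-like receptor signalling in macrophages, rose by 2.20 ± 0.25. In this list 13 of 26 rose, 13 did not pass and the median was 0.58. The signalling genes Traf6, Tirap and Nlrp3 did not pass, at -0.11 ± 0.15, -0.11 ± 0.18 and -0.25 ± 0.16. Nlrp3 fell with centring on detected probes and in the authors' value table.

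Chemokine genes rose on a wide front. Cxcl9, the interferon-induced ligand of CXCR3 that draws T and NK cells, was not above background on the control arrays and was at 10.66, 9.77 and 8.54 at day 4, at least 30.2-fold higher (adjusted p = 1.47e-08). Cxcl13, a B cell attractant, was at 4.36, 4.85 and 4.35 in control and 9.43, 7.43 and 7.57 at day 4 and rose by 3.63 ± 0.50. The CC chemokine genes Ccl4 and Ccl5 rose by 3.21 ± 0.51 and 2.47 ± 0.32, and Ccl3, not above background in control, rose at least 9.12-fold. Among these genes the day 4 array of replicate 1 was highest for Cxcl9, Cxcl13 and Ccl4, as the plot of array values shows. The monocyte attractant genes Ccl8, Ccl7 and Ccl12 rose at least 5.53-fold, at least 4.39-fold and by 2.28 ± 0.28, Cxcl16 rose by 1.88 ± 0.13 and Xcl1 by 2.20 ± 0.35. In the list 18 of 35 rose and 2 fell (0 fell without the control array of replicate 3), with a median of 1.00, and 13 rose without the day 4 array of replicate 1. The constitutive chemokine genes Cxcl12 (-0.19 ± 0.16), Ccl19 (-0.10 ± 0.20) and Cxcl15 (0.13 ± 0.39) did not pass. The probes of Ccl21a and Ccl21b, near-identical copies, gave 0.17 ± 0.14 and 0.13 ± 0.16 and did not pass either. Both rose with median scaling and in the authors' value table.

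Interferon gamma, made by NK and T cells, induces GTPases, MHC genes and CXCR3 ligands, and type I interferons induce an overlapping set. Igtp, an immunity-related GTPase, was at 7.08, 6.82 and 7.0 in control and 10.07, 8.94 and 7.76 at day 4, a rise of 1.96 ± 0.37 (adjusted p = 5.08e-04). Its relative Irgm1 rose by 1.64 ± 0.34 and the checkpoint ligand gene Cd274 (PD-L1) by 1.99 ± 0.30. Of 23 tested interferon gamma response genes 16 rose and 0 fell, with a median of 1.17. Of the 23, 8 were above background on no control array, so the share of rises may partly reflect the detection filter. Ifng itself was above background on 1 of the 3 day 4 arrays and 0 of the control arrays and did not pass. In the type I list 12 of 28 rose and 0 fell, with a median of 0.69, led by Rsad2 (2.38 ± 0.41), Oas1g (1.84 ± 0.31) and Irf7 (1.24 ± 0.25). Both lists differed between slides: the medians for replicates 1, 2 and 3 were 1.94, 1.25 and 0.48 for the interferon gamma list and 1.05, 0.87 and 0.07 for the type I list. Without the day 4 array of replicate 1 the counts were 11 and 6.

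The promoters of Igtp and Irgm1 are shown because members of the interferon gamma list moved together; capitals mark the interferon-stimulated response element, 2 copies of GAAA with 2 bases between them, searched on both strands. Each RefSeq window of 300 bases on GRCm38.p6 spans the gene's start, with most of its bases upstream. Igtp lies at chr11:58199306-58199605 on the plus strand and Irgm1 at chr11:48871371-48871670 on the minus strand.
Igtp: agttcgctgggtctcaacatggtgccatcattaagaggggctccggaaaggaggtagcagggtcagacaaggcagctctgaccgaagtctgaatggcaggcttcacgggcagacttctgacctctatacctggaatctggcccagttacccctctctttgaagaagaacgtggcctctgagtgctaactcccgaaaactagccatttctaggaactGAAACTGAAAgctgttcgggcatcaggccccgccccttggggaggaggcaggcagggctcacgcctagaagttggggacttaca
Irgm1: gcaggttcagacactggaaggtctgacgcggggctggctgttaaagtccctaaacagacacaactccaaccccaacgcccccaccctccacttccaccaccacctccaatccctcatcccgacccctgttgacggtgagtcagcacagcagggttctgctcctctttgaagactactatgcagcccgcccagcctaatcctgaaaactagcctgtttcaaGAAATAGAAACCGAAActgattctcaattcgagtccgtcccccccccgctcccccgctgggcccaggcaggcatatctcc
Of the 22 windows of 19 matched genes of the list, 10 (45.5%) held the response element. This compares with 3.44% of all 32851 windows of the same length and 3.14% of the 10022 windows of tested genes. For members that rose it was 8 of 15 windows (53.3%). Whether the element took part in the response was not tested. The Igtp window holds 1 match, and that of Irgm1 holds 2 that overlap.

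Many genes of antigen presentation on MHC class I rose and 0 fell. H2-K1, a classical class I heavy chain, was at 9.23, 9.47 and 9.62 in control and 10.60, 10.93 and 11.30 at day 4 and rose by 1.50 ± 0.20 (adjusted p = 1.47e-05). The peptide transporter gene Tap1, the light chain gene B2m and the immunoproteasome genes Psmb8 and Psmb9 rose by 1.56 ± 0.40, 0.87 ± 0.15, 1.29 ± 0.30 and 1.36 ± 0.18. Tap1 did not pass without the day 4 array of replicate 1 (1.12, adjusted p = 0.072). In all 15 of 21 rose and 6 did not pass (median 0.97). The H2-Q and H2-T genes are close copies of each other, and cross-hybridization between their probes was not tested. Of 15 class II presentation genes 10 rose and 1 fell (median 0.76), or 6 rose without the day 4 array of replicate 2. The class II transactivator gene Ciita rose by 0.91 ± 0.17, the lysosomal thiol reductase gene Ifi30 by 1.72 ± 0.20 and H2-DMa, which loads peptides, by 0.87 ± 0.20. H2-Ob, an inhibitor of that loading found mainly in B cells, fell by 0.84 ± 0.19.

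Macrophage genes formed the list with the highest share of rises. Adgre1, a surface antigen that marks mouse macrophages, was at 6.72, 7.01 and 7.17 in control and 9.12, 9.66 and 9.90 at day 4, a rise of 2.60 ± 0.19 (adjusted p = 3.81e-09), with no overlap between the groups. The inhibitory Fc receptor gene Fcgr2b rose by 3.11 ± 0.28, the activating receptor genes Fcgr3 and Fcgr4 by 2.21 ± 0.18 and 2.28 ± 0.21, their shared chain Fcer1g by 2.42 ± 0.20 and the actin-binding protein gene Aif1 by 2.87 ± 0.16. In the list 25 of 32 rose, 6 did not pass and 1 fell, with a median of 1.54 and slide medians of 1.62, 1.29 and 1.39. The mannose receptor gene Mrc1 (-0.07 ± 0.20), the efferocytosis receptor gene Mertk (0.14 ± 0.20) and the oxidase subunit gene Cybb (-0.18 ± 0.17) did not pass. Mertk rose with median scaling, and Cybb fell with centring on detected probes and in the authors' value table. Lyz1 fell by 1.06 ± 0.25, a call lost with arrays scaled to a common median, and its close copy Lyz2 was at 0.44 ± 0.41 and did not pass; their probes may share targets, which was not tested. Counts for the list were 24 to 25 higher when any 1 wild type control or day 4 array was left out.

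Complement genes rose more often than they fell. Cfb, the serine protease of the alternative pathway, was at 6.96, 6.70 and 7.04 in control and 10.79, 10.96 and 11.19 at day 4 and rose by 4.08 ± 0.32, or 16.9-fold (adjusted p = 1.31e-08). The 3 chains of C1q, which macrophages make, moved alike, with rises of 2.47 ± 0.23 for C1qa, 3.17 ± 0.25 for C1qb and 3.00 ± 0.27 for C1qc. Levels of C1qb were 5.87, 6.05 and 5.90 in control and 8.72, 9.26 and 9.34 at day 4, so no day 4 array overlapped the controls. Hc, which encodes complement C5, went the other way, from 9.80, 9.11 and 9.74 to 6.36, 8.23 and 7.0, a fall of 2.35 ± 0.32 (adjusted p = 1.77e-05). The list had 7 rises and 2 falls among 20 tested genes, or 13 rises and 1 fall with median scaling. Its share of falls (10%) was below the 14% of all genes. The classical pathway genes C2 (0.23 ± 0.21) and C4b (0.32 ± 0.16) did not pass. Both rose with median scaling, and C4b also in the authors' value table.

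Lysosomal enzymes and genes of lipid-laden macrophages rose as well. Cathepsin K, encoded by Ctsk and best known from osteoclasts, rose by 2.67 ± 0.20, with levels of 7.01, 6.57 and 6.95 in control and 9.24, 9.39 and 9.92 at day 4. The cathepsin genes Ctss, Ctsz and Ctsb rose by 2.19 ± 0.35, 1.60 ± 0.16 and 1.01 ± 0.18, the proton pump subunit gene Tcirg1 by 1.66 ± 0.34 and the saposin precursor gene Psap by 1.50 ± 0.18. Of 35 genes in this list 22 rose and 1 fell (median 0.74). Trem2, a lipid receptor of macrophages, was at 4.76, 4.32 and 4.33 in control and 6.51, 7.54 and 8.39 at day 4, a rise of 3.01 ± 0.29 with 1 control array above background, and the lowest of its day 4 values stood on the array of replicate 1. The platelet-activating factor hydrolase gene Pla2g7, Gpnmb, Apoe and the lipid droplet coat gene Plin2 rose by 3.24 ± 0.29, 2.52 ± 0.42, 2.05 ± 0.46 and 1.92 ± 0.35. Here 8 of 18 rose and 0 fell, or 14 rose with median scaling; the nuclear receptor gene Pparg (-0.08 ± 0.21) and the fatty acid receptor gene Cd36 (-0.11 ± 0.25) did not pass.

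Genes linked with alternative activation of macrophages, which in mice is driven by interleukins 4 and 13, rose in part. Retnla, a resistin-like protein, was at 9.25, 7.16 and 7.61 in control and 12.07, 11.41 and 11.45 at day 4 and rose by 3.64 ± 0.49 (adjusted p = 1.57e-05); the control array of replicate 1 was the highest of the controls. Arginase, encoded by Arg1, was not above background in control and at 8.68, 7.36 and 8.39 at day 4, at least 10.6-fold higher. The chitinase-like genes Chil3 and Chil4, close copies whose probes may share targets, rose by 1.72 ± 0.36 and 2.24 ± 0.47. In the list 8 of 17 rose and 1 fell, the fall being that of the lectin gene Mgl2 (-0.81 ± 0.20), which was lost with median scaling. The chemokine genes Ccl17 (0.03 ± 0.18) and Ccl22 (-0.29 ± 0.14) did not pass, though Ccl22 fell with centring on detected probes and in the authors' value table.

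Neutrophil genes depended on the array. Clec4d and Clec4e, lectin receptors that myeloid cells share, rose by 3.39 ± 0.29 and 3.05 ± 0.35, and the formyl peptide receptor gene Fpr2 by 2.66 ± 0.34. The calprotectin gene S100a8, most abundant in neutrophils, had levels of 8.53, 12.05 and 10.43 in control and 12.28, 11.22 and 11.87 at day 4. Its difference of 1.45 ± 0.70 did not pass (adjusted p = 0.143). It passed without the control array of replicate 2 (2.31, adjusted p = 0.0219), with median scaling and in the authors' value table. Its control values ranged wider than the difference, and the control array of replicate 2 exceeded that replicate's day 4 array. The list had 11 rises and 0 falls among 24 genes, with slide medians of 2.18, 0.04 and 0.91, and 7 rises without the day 4 array of replicate 1. Its summed signal was 1768 to 9686 in control and 7300 to 17340 at day 4, and the granule genes Mpo and Elane were not above background in either group. The share of neutrophils in the other results was not tested.

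**Figure D2:**
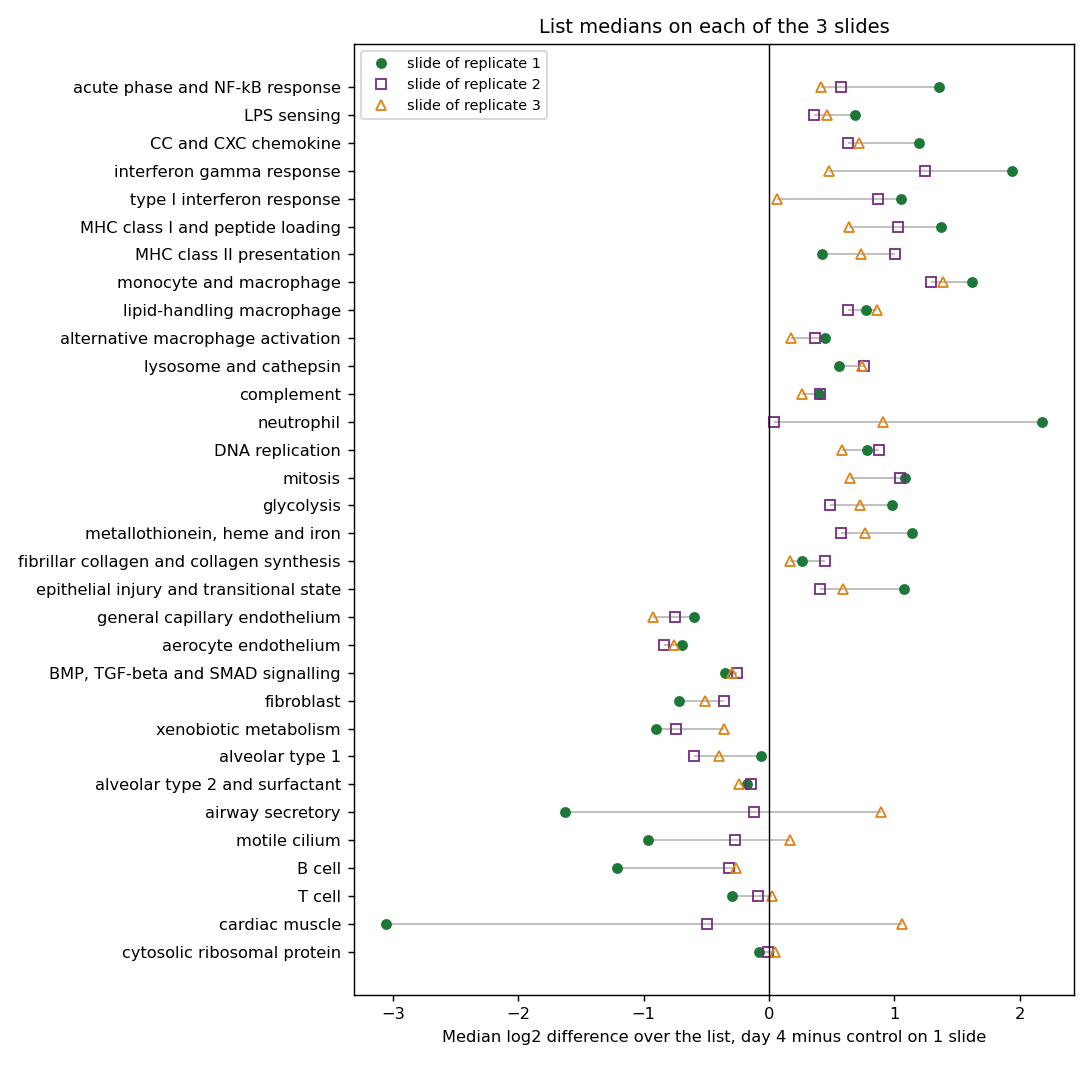
Each symbol is the median log2 difference over 1 gene list between the day 4 and control arrays of 1 slide, and grey lines join the 3 slides. Macrophage medians lie between 1.29 and 1.62, whereas cardiac muscle runs from -3.05 to 1.06 and neutrophil from 0.04 to 2.18.

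Genes of cell division were higher on every slide. In S phase, Uhrf1, which guides DNA methylation at the fork, was at 6.15, 6.02 and 6.00 in control and 8.01, 8.10 and 7.48 at day 4, a rise of 1.81 ± 0.26 (adjusted p = 2.68e-05). The helicase subunit genes Mcm5 and Mcm2 rose by 1.38 ± 0.25 and 0.96 ± 0.21, the ligase gene Lig1 by 1.24 ± 0.19 and the licensing factor gene Cdt1 by 1.09 ± 0.16, and thymidylate synthase (Tyms) and thymidine kinase (Tk1), not above background in control, rose at least 2.69-fold and at least 1.7-fold. Of 33 replication genes 25 rose and 0 fell, with a median of 0.75 and slide medians of 0.78, 0.88 and 0.58. In mitosis, the survivin gene Birc5 was at 4.52, 4.79 and 4.54 in control and 6.61, 6.39 and 6.05 at day 4 and rose by 1.74 ± 0.28, with 1 control array above background (adjusted p = 1.19e-04), and the spindle midzone gene Prc1 rose by 1.88 ± 0.38. The kinase gene Cdk1, the checkpoint gene Bub1b and the anaphase activator gene Cdc20 were not above background in control and rose at least 2.86-fold, 2.9-fold and 2.5-fold. Of 37 mitosis genes 27 rose and 1 fell, with a median of 0.93. The rises were 20 to 31 under the 5 other scalings and 21 without the day 4 array of replicate 1. Of these 37 genes 20 were above background on no control array, and 10 of the 33 replication genes, against 1 and 0 at day 4. Such genes can pass the detection filter through arrays where they are high. The shares of rises in both lists may thus partly reflect the filter. The same limit applies to other lists with many rises. Genes above background on no control array were 8 of 23 interferon gamma and 7 of 28 type I interferon genes. They were also 11 of 35 chemokine, 8 of 33 acute phase and 9 of 24 neutrophil genes. At day 4 these counts were 0, 1, 3, 1 and 2. The proliferation marker Mki67 had 1 probe that rose (1.24 ± 0.23) and a dimmer one that fell (-0.64 ± 0.11), so no single direction is given for it.

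The promoters of 4 such genes are printed since the mitosis and replication genes moved together. Capitals mark, for Cdk1, Aurka and Cdc20, the cell cycle homology region TTTGAA and the NF-Y box CCAAT, and for Mcm5 the E2F site TTTGGCGC (TTTCCCGC was searched too), each on both strands and none overlapping another. The RefSeq windows of 300 bases around the start on GRCm38.p6 are Cdk1 at chr10:69352863-69353162, Aurka at chr2:172370521-172370820 and Cdc20 at chr4:118437294-118437593, all on the minus strand, and Mcm5 at chr8:75109259-75109558 on the plus strand.
Cdk1: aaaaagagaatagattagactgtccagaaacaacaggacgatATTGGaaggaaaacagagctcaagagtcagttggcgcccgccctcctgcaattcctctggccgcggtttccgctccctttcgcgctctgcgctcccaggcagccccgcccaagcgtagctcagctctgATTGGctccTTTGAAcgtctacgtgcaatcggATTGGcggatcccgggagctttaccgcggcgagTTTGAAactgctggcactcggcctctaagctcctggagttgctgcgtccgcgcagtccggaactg
Aurka: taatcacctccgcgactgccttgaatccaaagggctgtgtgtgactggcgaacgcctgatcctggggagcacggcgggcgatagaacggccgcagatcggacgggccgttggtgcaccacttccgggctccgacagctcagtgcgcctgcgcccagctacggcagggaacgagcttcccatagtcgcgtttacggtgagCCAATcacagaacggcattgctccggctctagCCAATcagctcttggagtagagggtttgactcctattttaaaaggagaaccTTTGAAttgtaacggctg
Cdc20: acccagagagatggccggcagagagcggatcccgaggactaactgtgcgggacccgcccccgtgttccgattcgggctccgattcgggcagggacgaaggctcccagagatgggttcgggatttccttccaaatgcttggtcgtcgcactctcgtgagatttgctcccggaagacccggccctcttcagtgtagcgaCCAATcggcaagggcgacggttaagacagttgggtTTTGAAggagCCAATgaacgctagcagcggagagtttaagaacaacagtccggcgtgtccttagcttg
Mcm5: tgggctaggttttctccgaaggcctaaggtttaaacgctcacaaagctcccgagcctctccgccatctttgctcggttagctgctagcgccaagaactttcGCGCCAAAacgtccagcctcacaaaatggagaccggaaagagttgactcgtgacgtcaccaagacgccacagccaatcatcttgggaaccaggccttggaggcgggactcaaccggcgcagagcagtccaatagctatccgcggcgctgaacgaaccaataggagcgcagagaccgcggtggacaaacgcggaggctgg
The pair TTTGAA and CCAAT was found in 20 of the 29 windows (69.0%) of 28 matched mitosis genes, against 6.95% of all 32851 windows and 4.72% of the 10022 windows of tested genes. An E2F site of those letters was in 9 of 36 replication windows (25%), against 1.56% of all windows and 2.42% of those of tested genes. For members that rose, the shares were 17 of 24 windows (70.8%) in mitosis and 7 of 28 (25%) in replication. These are close to the shares of the whole lists. Whether the sites took part in the response was not tested.

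Glycolysis and iron genes shared the direction. The glucose transporter gene Slc2a1 was at 5.68, 6.29 and 5.94 in control and 7.69, 7.11 and 7.41 at day 4 and rose by 1.44 ± 0.21, and hexokinase 2 (Hk2) by 1.25 ± 0.22. The enzymes Gapdh, Pgk1, Pkm and Ldha rose by 1.39 ± 0.17, 1.35 ± 0.18, 1.15 ± 0.20 and 0.92 ± 0.16. In all 11 of 20 rose and 2 fell (median 0.85), or 0 fell without the day 4 array of replicate 1. Hmox1, which degrades heme, rose by 2.21 ± 0.30 from 6.31, 6.45 and 7.18 to 9.05, 8.23 and 9.31, the divalent metal transporter gene of phagosomes, Slc11a1, by 1.70 ± 0.16, and the metallothionein gene Mt1 by 1.15 ± 0.22. Of 22 genes for metallothioneins, heme and iron 12 rose and 0 fell. The hepcidin gene Hamp (-0.87 ± 0.50) and the transferrin receptor gene Tfrc (0.05 ± 0.20) did not pass. Hamp fell with centring on detected probes and in the authors' value table. Respiratory chain and proteasome genes rose in 8 of 56 (14.3%) and 4 of 29 (13.8%), near the 11% of all genes. With median scaling 36 and 26 rose, so these counts rest on the scaling, while 0 fell under any scaling. Cytosolic ribosomal protein genes had 2 rises and 2 falls among 55, or 28 and 0 with median scaling.

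Matrix genes moved in both directions. Timp1, an inhibitor of metalloproteinases, was at 6.70, 6.49 and 6.63 in control and 11.34, 9.90 and 9.43 at day 4, a rise of 3.62 ± 0.43 (adjusted p = 2.98e-06). In other matrix classes Tgfbi, a secreted protein induced by TGF-beta, rose by 2.93 ± 0.16, fibronectin (Fn1) by 2.17 ± 0.42 and elastin (Eln) by 2.15 ± 0.50. The collagen chains Col1a1 and Col1a2 rose by 1.54 ± 0.26 and 1.61 ± 0.32 and the crosslinking enzyme gene Lox by 1.11 ± 0.22; Col1a1 levels were 7.44, 6.54 and 7.03 in control and 8.18, 8.63 and 8.83 at day 4. Of 32 genes for elastic fibres, glycoproteins and proteoglycans, the list that holds Tgfbi, Fn1 and Eln, 8 rose and 6 fell (median 0.09), or 4 and 3 without the day 4 array of replicate 1, and of 16 basement membrane genes 0 rose and 3 fell, or 4 and 0 with median scaling. Of 24 fibrillar collagen and collagen synthesis genes 8 rose and 4 fell, or 15 and 2 with median scaling and 5 and 2 without the control array of replicate 2. The 4 falls of this collagen list were in enzymes that hydroxylate collagen, among them P4ha1 (-1.42 ± 0.24) and P3h2 (-0.83 ± 0.16). The shares of falls in the elastic fibre, basement membrane and collagen lists (18.8%, 18.8% and 16.7%) were near the 14% of all genes. Ltbp4, which binds latent TGF-beta to elastic fibres, fell by 2.09 ± 0.20 from 8.37, 8.50 and 8.19 to 6.30, 6.46 and 6.03. The proteases Mmp12 and Mmp14 rose by 1.71 ± 0.20 and 2.06 ± 0.21, and Mmp2 (0.13 ± 0.28) and the myofibroblast actin gene Acta2 (0.34 ± 0.40) did not pass. Of 30 matrix protease and inhibitor genes 6 rose, 2 fell and 22 did not pass (median 0.28). The counts were 16 and 0 with median scaling, and 4 rose without the day 4 array of replicate 1.

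Capillary endothelial genes fell together. Cavin2, a coat protein of caveolae, was at 11.36, 11.20 and 11.20 in control and 9.54, 10.06 and 9.60 at day 4, a fall of 1.52 ± 0.20 (adjusted p = 9.83e-06). Plvap, which forms the diaphragms of fenestrae, fell by 1.36 ± 0.25, the lipase anchor gene Gpihbp1 by 1.30 ± 0.22, the vascular phosphatase gene Ptprb by 1.34 ± 0.22 and the adhesion molecule gene Icam2 by 1.06 ± 0.16. Of 36 general capillary genes 0 rose and 19 fell, with a median of -0.82 and slide medians of -0.60, -0.75 and -0.92. With median scaling the counts were 2 and 6 and the median -0.31. Egfl7, 1 of the 19, also had a dim probe that rose. The pan-endothelial genes Pecam1 (-0.43 ± 0.33) and Nos3 (0.11 ± 0.18) did not pass, and Cdh5, VE-cadherin, fell by 1.00 ± 0.29. Cdh5 did not pass with median scaling, in the authors' value table or without the control array of replicate 3 (-0.92, adjusted p = 0.0527). In aerocytes, the thin capillary cells that face the alveolus, Ednrb (the endothelin B receptor) was at 9.25, 8.92 and 8.87 in control and 6.05, 7.16 and 6.83 at day 4 and fell by 2.34 ± 0.27 (adjusted p = 1.89e-06); 4 of 9 genes of that list fell, or 1 with median scaling.

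Genes of BMP and TGF-beta signalling, which acts through SMAD proteins on endothelium and mesenchyme, fell more often than they rose. Bmp6, a bone morphogenetic protein, was at 6.17, 6.91 and 6.42 in control and 5.17, 5.08 and 4.77 at day 4 and fell by 1.49 ± 0.22 (adjusted p = 4.38e-05). Falls were also seen for the ligand genes Bmp4 (-0.96 ± 0.18) and Tgfb2 (-0.93 ± 0.17), the receptor genes Acvrl1 (-0.82 ± 0.18) and Eng (-0.98 ± 0.20), and the inhibitory gene Smad6 (-1.11 ± 0.29). Follistatin (Fst), which binds activins, and its relative Fstl1 rose by 1.37 ± 0.28 and 1.01 ± 0.22. The list had 6 rises and 12 falls among 30 genes and a median of -0.32, but 7 rises, 1 fall and a median of 0.10 with median scaling, and of the falls named here that of Bmp6 passed under each of the 5 other scalings. Tgfbr1, 1 of the 6 rises, had probes that disagreed.

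In fibroblasts, the growth factor gene Fgf10, which sustains epithelial progenitors, was at 6.72, 6.51 and 6.80 in control and 5.43, 5.78 and 5.53 at day 4 and fell by 1.10 ± 0.17 (adjusted p = 7.40e-05). The integrin gene Itga8, the Wnt ligand gene Wnt2 and the methyltransferase gene Inmt fell by 1.67 ± 0.31, 1.02 ± 0.22 and 1.91 ± 0.41. Of 19 fibroblast genes 1 rose, S100a4 (1.56 ± 0.30), which macrophages also make, and 8 fell (median -0.53). With median scaling 2 rose and 4 fell, and 5 fell without the day 4 array of replicate 1.

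Detoxification genes held the steepest fall. Pon1, an esterase carried on lipoproteins, was at 8.97, 9.10 and 8.54 in control and 5.14, 5.49 and 5.97 at day 4, a fall of 3.34 ± 0.30, or 10.1-fold (adjusted p = 5.55e-08). Cyp2f2, a cytochrome P450 of club cells, was at 11.62, 11.84 and 11.45 in control and 8.79, 9.47 and 10.24 at day 4 and fell by 2.13 ± 0.31 (adjusted p = 4.02e-05). The glutathione transferases Gstm1, Gstm2 and Gsta3 fell by 1.50 ± 0.21, 1.14 ± 0.18 and 1.76 ± 0.28, and the epoxide hydrolase gene Ephx1 and the aldehyde oxidase gene Aox3 by 1.34 ± 0.23 and 1.51 ± 0.28. Of 43 genes 0 rose and 20 fell, with a median of -0.67 and slide medians of -0.90, -0.75 and -0.36; with median scaling 4 rose and 11 fell. Cyp2e1 (-0.07 ± 0.52) and the paraoxonase relative Pon3 (0.12 ± 0.17) did not pass.

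Epithelial genes moved in both directions. The tissue label was checked on surfactant protein C (Sftpc) and the club cell secretoglobin Scgb1a1, which lay at the top of the scale in both groups (13.93, 13.93 and 13.93 in control and 13.33, 13.93 and 13.93 at day 4 for Sftpc), so that a change of either could not be measured well; that of Sftpc did not pass here but was -0.71 (adjusted p = 0.0206) with cyclic loess. Ager, a marker of alveolar type 1 cells, was at 12.01, 11.94 and 12.15 in control and 10.91, 11.34 and 11.03 at day 4 and fell by 0.94 ± 0.16, a call lost with median scaling, and Limch1 by 1.44 ± 0.20. Of 17 type 1 genes 0 rose and 6 fell, or 3 and 1 with median scaling. Of 31 type 2 and surfactant genes 2 rose and 5 fell, a share of falls near that of all genes. The counts were 7 and 1 with median scaling, and 3 fell without the control array of replicate 3. The 5 falls were those of Hc (by 2.35 ± 0.32) and Lyz1 (by 1.06 ± 0.25), both also given above in other lists, and of Etv5, Lpcat1 and Ank3. Sftpb (-0.19 ± 0.53), Abca3 (-0.19 ± 0.17) and Lamp3 (0.16 ± 0.31) did not pass, while the chitinase-like gene Chil1 rose by 0.64 ± 0.16. Genes of injured and transitional epithelium rose, 8 of 19 with 0 falls (median 0.54; 15 rose with median scaling), among them the keratin genes Krt8 (1.13 ± 0.25) and Krt18 (1.07 ± 0.25), clusterin (Clu, 1.55 ± 0.18) and galectin 3 (Lgals3, 1.02 ± 0.15), which macrophages express as well.

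Airway and cardiac muscle genes varied between arrays of 1 group. The cardiac muscle list had 0 calls among 9 genes, and its slide medians were -3.05, -0.50 and 1.06. Myl7, an atrial light chain, was at 9.22, 6.31 and 4.87 in control and 4.77, 4.65 and 6.79 at day 4 (-1.39 ± 0.80, adjusted p = 0.222, or -2.36 and 0.0395 without the control array of replicate 3). Airway secretory medians were -1.63, -0.12 and 0.89 and motile cilium medians -0.97, -0.27 and 0.16. The control array of replicate 1 was highest of the 6 in the mean level of the airway, cilium and cardiac lists. Scgb3a1, an airway secretoglobin, ran from 4.45 to 11.53 in control and from 7.64 to 11.26 at day 4 and did not pass. Of the airway list 2 rose and 5 fell among 23 genes, or 5 and 2 with median scaling and 3 falls without the day 4 array of replicate 1. Of the cilium list 0 rose and 5 fell among 31, near the share of all genes; the falls were 2 with median scaling, 14 with centring on detected probes and 2 to 8 with 1 array left out. The part of these tissues in the falls of Cyp2f2, Cbr2 (-1.45 ± 0.28) and Tppp3 (-1.58 ± 0.17) was not tested. Cyp2f2 fell by 2.83, 2.37 and 1.21 on the slides of replicates 1, 2 and 3.

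B cell genes fell more often than they rose, and few T cell genes passed. Cd79b, a chain of the B cell receptor, was at 8.03, 7.22 and 6.67 in control and 5.84, 6.59 and 5.94 at day 4 and fell by 1.18 ± 0.23 (adjusted p = 6.21e-04), and Fcmr, the Fc receptor for IgM, was at 8.38, 7.82 and 7.46 in control and 5.87, 7.44 and 6.60 at day 4 and fell by 1.25 ± 0.26. All day 4 values of both lay below the lowest control value. Of 17 B cell genes 1 rose and 10 fell, with slide medians of -1.21, -0.32 and -0.26; with median scaling 5 rose and 5 fell, and 6 fell without the control array of replicate 1. The 1 rise was that of Cd72 (1.69 ± 0.24). Ebf1, which stromal cells share, fell by 0.87 ± 0.17. Of 16 T cell genes 0 rose and 2 fell (12.5%), near the 14% of all genes, while 4 rose with median scaling. The falls were those of Cd2 (-0.82 ± 0.19), lost with median scaling, and Gimap5 (-1.29 ± 0.16). The receptor chain genes Cd3e (-0.06 ± 0.22) and Cd3g (0.20 ± 0.18) did not pass, though Cd3g rose with median scaling and with cyclic loess. In the clock list 2 of 13 rose and 5 fell, or 3 and 2 with median scaling and 2 falls without the control array of replicate 1; Nr1d1, a repressor of the clock loop, fell by 1.50 ± 0.28 and Rora, its activating counterpart, by 0.99 ± 0.18.

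Some of the largest changes lay outside the lists. Calhm6, of a family of membrane channels, was at 7.82, 7.64 and 6.70 at day 4 and not above background in control, at least 6.25-fold higher. Among the falls, Bex2 was at 8.39, 8.51 and 8.57 in control and 5.26, 6.30 and 5.79 at day 4 (-2.71 ± 0.31, adjusted p = 1.85e-06), the acyl-CoA oxidase-like gene Acoxl at 7.64, 8.12 and 8.29 in control and 5.16, 6.13 and 5.82 at day 4 (-2.31 ± 0.25), and the amino acid transporter gene Slc7a10 at 7.24, 7.02 and 7.03 in control and 4.44, 5.13 and 4.95 at day 4 (-2.26 ± 0.34). None of these overlapped between the groups. The procollagen proteinase enhancer gene Pcolce2, the intermediate filament gene Synm, the IGF-binding protein gene Igfbp6 and the gene Lrat, which esterifies retinol, fell by 2.24 ± 0.30, 2.08 ± 0.27, 1.94 ± 0.28 and 1.86 ± 0.23. Other falls in the same ranking were those of the calcium pump gene Atp2a3 (-1.93 ± 0.22), the endothelial proteoglycan gene Esm1 (-1.91 ± 0.32), the matrix genes Prelp (-1.76 ± 0.21) and Tnxb (-1.75 ± 0.29), the peroxisomal thiolase gene Acaa1b (-1.76 ± 0.23) and Aard (-1.77 ± 0.25).

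Day 4 was then set against day 1 of the same genotype. This contrast does not use the controls but shares the day 4 arrays with the main comparison. It gave 4717 probes (34.8%), 2453 higher at day 4 (18.1%) and 2264 lower (16.7%), or 1530 probes in a fit of only the compared arrays. By gene 19.3% were higher and 18.4% lower. Macrophage genes were higher at day 4 than at day 1, 17 of 32 with 1 lower, among them Aif1 by 3.52 ± 0.16, Trem2 by at least 6.57-fold and Adgre1 by 2.65 ± 0.19. The complement gene C1qc was higher by 3.83 ± 0.27. Its mean levels were 5.11 ± 0.58 (SD) at day 1 and 8.95 ± 0.32 at day 4, against 5.95 ± 0.10 in control. Lysosome genes were higher in 24 of 35, class II genes in 11 of 15, mitosis genes in 26 of 37 and replication genes in 18 of 33, with Retnla higher by 3.75 ± 0.49, Arg1, above background on 1 array at day 1, by 3.40 ± 0.49, and Apoe by 3.07 ± 0.46. Type I interferon genes were lower at day 4 in 22 of 28 with 0 higher, among them Rsad2 (-4.05 ± 0.41) and Mx2 (-3.68 ± 0.23, above background on 2 of the day 4 arrays). Acute phase and NF-kB genes were lower in 20 of 33, although Saa3 differed by 0.45 ± 0.39 and did not pass (adjusted p = 0.403). The neutrophil attractant Cxcl1 dropped by 3.52 ± 0.53, the metallothionein gene Mt2 by 4.18 ± 0.35 and the neutrophil growth factor gene Csf3, above background on 1 day 4 array, by 3.80 ± 0.28. Interferon gamma genes were higher in 2 and lower in 6 of 23. The collagen list was higher at day 4 in 12 of 24 and lower in 1, and the general capillary list higher in 12 and lower in 6 of 36.

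**Figure D3:**
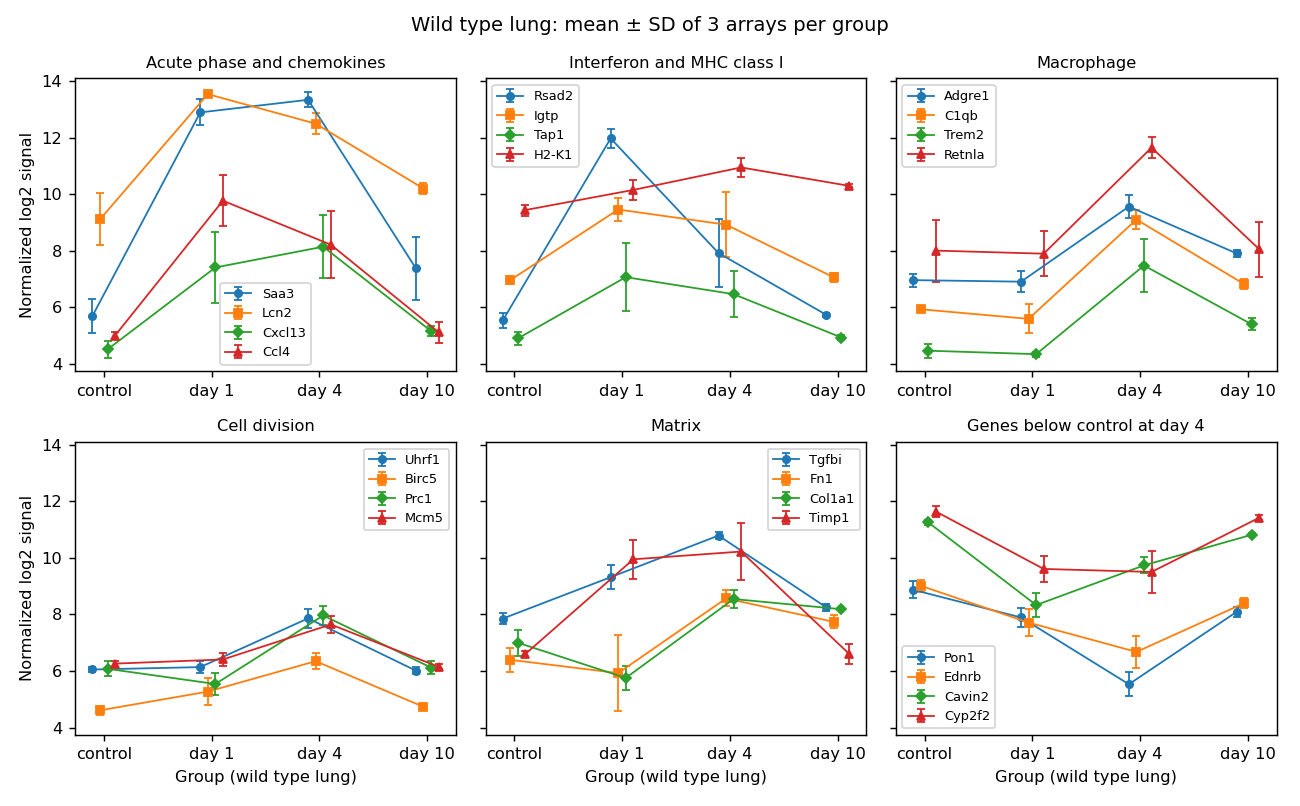
Points are the mean and bars the SD of the normalized log2 signal of 3 wild type arrays per group, for 4 genes in each panel. Rsad2 is highest at day 1, the macrophage and cell division genes peak at day 4, and Pon1 and Ednrb are lowest at day 4.

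From day 4 to day 10, 2025 probes passed (15%), 1083 higher at day 10 (8%) and 942 lower (6.96%), or 9.35% and 7.68% of genes. With array weights 3718 passed, and 1126 did without the day 4 array of replicate 1. Class II genes were lower in 1 of 15 with 0 higher. Mitosis genes were lower in 25 of 37 and replication genes in 22 of 33 with 0 higher; Birc5 dropped by 1.61 ± 0.28 and Uhrf1 by 1.85 ± 0.26. Macrophage genes were lower in 19 of 32, lysosome genes in 17 of 35, class I genes in 16 of 21 and interferon gamma genes in 14 of 23. Saa3 dropped by 5.96 ± 0.39, Cxcl9 by 4.43 ± 0.42, Timp1 by 3.61 ± 0.43 and Clec4e by 3.17 ± 0.35. Type I interferon genes were lower in 9 of 28. In the collagen list 3 of 24 were higher and 0 lower, and Col1a1 levels of 8.54 ± 0.33 (SD) at day 4 and 8.19 ± 0.04 at day 10 did not differ past the threshold (-0.36 ± 0.26, adjusted p = 0.419). General capillary genes were higher at day 10 in 20 of 36, xenobiotic genes in 16 of 43 and BMP list genes in 11 of 30, with Pon1 higher by 2.56 ± 0.30, Hc by 3.12 ± 0.32 and Cavin2 by 1.08 ± 0.20. The cardiac genes Myl4, Myl7 and Actc1 were among the 8 genes with the largest rises to day 10 (3.24 ± 0.86, 3.06 ± 0.80 and 3.01 ± 0.72). Without the day 4 array of replicate 1, Myl4 (2.80) and Myl7 (2.74) did not pass, with adjusted p of 0.082 and 0.0659. Neither passed without the day 10 array of replicate 2 (adjusted p = 0.0555 for Myl4 and 0.0536 for Myl7), and Myl7 did not without the day 4 array of replicate 2 (0.0532).

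The series is titled for regulatory T cells, and the Rag-1 null lungs ask whether the day 4 response differs without mature T and B cells. Tested as a difference of the 2 responses, 0 of 13544 probes passed in limma (lowest adjusted p = 0.056), and 1483 (10.9%) had an unadjusted p under 0.05. The standard error of this difference had a median of 0.23 over the probes. Other settings gave calls: 451 with array weights, 1807 with median scaling, 2159 with centring on detected probes and 1276 in the authors' value table. For the last 3, the change from control to day 4 was more positive in wild type for 96.3%, 1.95% and 23% of the calls. The direction thus depended on the scaling. In Rag-1 null lung alone 3686 probes passed at day 4 (27.2%). Of the 3152 wild type calls 65.4% were also called there, and of the Rag-1 null calls 55.9% in wild type; 2055 of the 2061 shared calls had 1 direction. All 20 of the largest rises and all 20 of the largest falls of wild type lung also passed in Rag-1 null lung in the same direction, Saa3 with 8.21 ± 0.39, Arg1 with 3.97 ± 0.49, Pon1 with -3.21 ± 0.30 and Hc with -3.34 ± 0.32.

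**Figure D4:**
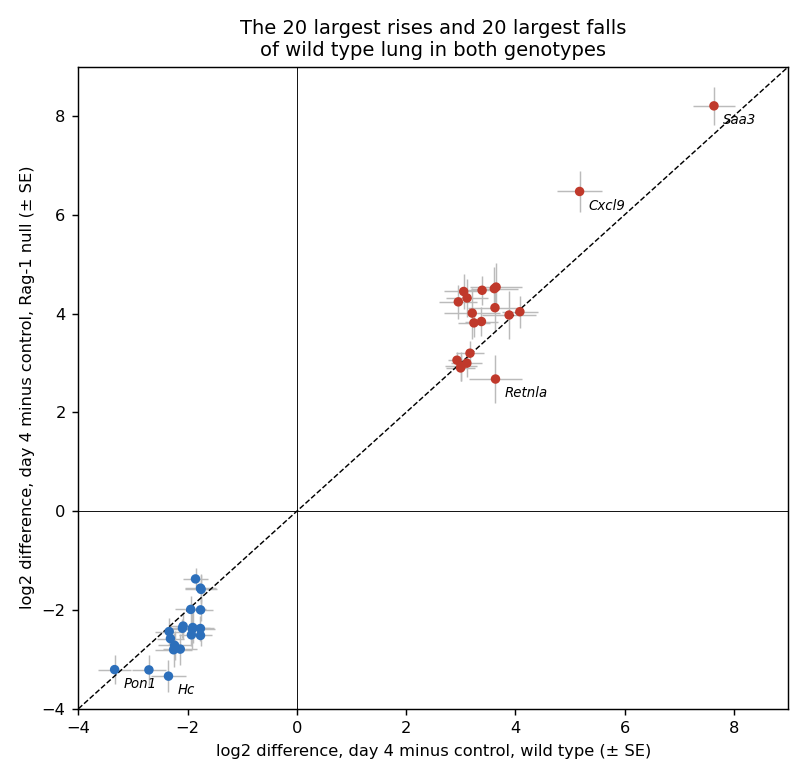
Each point is 1 of the 20 largest rises (red) or 20 largest falls (blue) of wild type lung, with the log2 difference of day 4 from control in wild type on the x axis and in Rag-1 null lung on the y axis, bars giving the SE and the dashed line equality. The Rag-1 null values run from 2.68 to 8.21 for the rises and from -3.34 to -1.37 for the falls.

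Genes of B cells are given for both genotypes. Cd79b fell by 1.18 ± 0.23 in wild type and was at 0.00 ± 0.23 in Rag-1 null lung, a difference of -1.18 ± 0.32 that did not pass (adjusted p = 0.146). Fcrl1 fell by 1.10 ± 0.14 in wild type lung and was not above background in any Rag-1 null control or day 4 array; its difference of -1.13 ± 0.20 had an adjusted p of 0.056, the lowest value reached, and did not pass either. Ebf1 fell in both, by 0.87 ± 0.17 and 0.83 ± 0.17. Among rises, Fcgr4 was at 2.28 ± 0.21 in wild type and 3.88 ± 0.21 in Rag-1 null lung (difference -1.60 ± 0.29, adjusted p = 0.0614) and Clec4e at 3.05 ± 0.35 and 4.45 ± 0.35 (difference -1.39 ± 0.50, adjusted p = 0.282). For the macrophage genes Adgre1 and C1qb the differences were 0.05 ± 0.26 and -0.03 ± 0.36, with adjusted p of 0.968 and 0.989.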

How the data were processed

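Total RNA of whole lung was extracted with Trizol and RNeasy columns and amplified to biotin-labelled cRNA with the Ambion MessageAmp kit, per the labels' protocols. The deposited scanner tables hold 1 summarized intensity for each of 24046 probes on 24 arrays, and per the file headers the replicate number is the slide. Detection p-values, a fraction between 0 and 1 for each probe and array, were deposited by the authors beside the intensities. A value table deposited by the authors holds log2 values of 13029 probes, which equal the log2 intensity minus the array's mean over those probes (largest gap 0.000543), with column medians from -0.546 to -0.371. Each scanner column was given to the sample whose value table column it matched (a gap of at least 1.42 to any other), because the line of titles over the scanner signals disagreed with that match for 22 of 24 arrays. The number of columns of no sample was 0.

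Intensities were background corrected with normexp, quantile normalized and put on a log2 scale with an offset of 16 (neqc in limma 3.58.1, R 4.3.3). Probes with a detection p under 0.05 on at least 3 arrays were kept, and 1 model with 8 group means and an intensity trend was fitted, with Benjamini-Hochberg adjustment over all 13544 probes. The number of arrays limits the precision. On simulated data in which 200 probes were changed, all changes of 1 and 2 on the log2 scale were recovered (100%), with 5.21% false calls. These percentages belong to that simulation only. The share of changes found and of false calls on the lung arrays was not tested. A gene takes its brightest probe; of 189 genes with several called probes, 10 had probes that disagreed in direction.

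The comparison, the gene lists and the genes were chosen with earlier results of these data known. Genes named are the 20 largest rises and falls that moved the same way in all 3 same-numbered pairs, up to 6 members of each list per direction with the smallest adjusted p, the 8 largest of each other comparison, and list members given for their role. Same-numbered arrays share a slide, and their deviations from the group means correlated at -0.242, 0.0169 and -0.165. Alternatives were other background, scaling and filter choices, the value table, array weights, the slide as a block, fixed or random (with statmod 1.5.0), and leaving out each array. Centring on the probes detected on all arrays was added after seeing the data.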

Additional observations from a re-analysis of the deposited data

How the results depend on the processing

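For wild type day 4 against control, 3152 probes passed, and 4931 with median centring, 5499 with centring on the probes detected on all arrays (chosen after seeing the data) and 5234 in the authors' value table. Leaving out 1 array gave 1869 to 2758, the lowest without the day 4 array of replicate 1. Day 4 against day 1 (4717) gave 1530 with only the compared arrays and 3828 to 5415 with 1 array left out. Day 10 against day 4 (2025) gave 3718 with array weights, and 1126 to 1910 with 1 array left out, again lowest without the day 4 array of replicate 1. The genotype difference, with 0 calls in limma and 1483 at an unadjusted p under 0.05, gave 1807 with median centring, 2159 with centring on detected probes, 1276 in the value table, 451 with array weights, 5 with cyclic loess, 5 with 1 probe per gene, 4 with a random slide block and 0 to 81 with 1 array left out. With the replicate block, which is the slide, the counts were 3247 for the main comparison and 1 for the genotype difference. Of 163 named genes that passed in the main comparison, 151 passed in the same direction under every alternative run and 160 with any 1 array left out. The 3 that did not were Cdh5, Cxcl1 and Tap1. Many of these genes were picked for large changes or small adjusted p, so these counts do not measure the stability of all calls. Of all 3152 calls, 2922 were also called with cyclic loess, 2800 with centring on detected probes and 1968 with median centring. The value table, which lacks some tested probes, shared 2382, and 1825 remained without the day 4 array of replicate 1. Of the named genes that did not pass, 20 passed under at least 1 alternative. With median centring C2, C4b, Ccl21a, Ccl21b, Cd3g, Icam1, Lyz2, Mertk, Mmp2, Nfkbia, Nos3, Pon3, S100a8 and Vcam1 were higher. With centring on detected probes Ccl22, Cybb, Hamp, Nlrp3 and Sftpc were lower, and all but Sftpc were also lower in the value table. In the value table C4b, Ccl21a, Ccl21b, Nfkbia, S100a8 and Vcam1 were higher. Dim probes limit the folds given as bounds. The cause of these shifts was not tested.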
